A study of Mus musculus with 12 samples.

Results

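The miR-30 family is a set of 5 closely related microRNAs, mmu-miR-30a, mmu-miR-30b, mmu-miR-30c, mmu-miR-30d and mmu-miR-30e, written here without the species prefix. Its members were taken by name from an nCounter microRNA panel, as 5 of the 566 mouse miRNA probes, and no star (opposite-strand) form of a miR-30 was used. All 5 were among the 217 probes that exceeded the lane's background limit (mean plus 2 SD of the 8 negative controls) in at least 3 of 12 lanes, and all 5 exceeded it in every lane. The samples were isolated optic nerves of male C57Bl/6 mice in 4 groups of 3: OGD+CX-4945, OGD+MS-275, OGD and Control. OGD is oxygen-glucose deprivation, a model of ischaemia in isolated tissue. All groups except Control received it. CX-4945, also called silmitasertib, is an inhibitor of casein kinase 2. MS-275, also called entinostat, blocks histone deacetylases of class I. The labels leave out age, dose, duration, the order of drug and OGD, any vehicle and the number of nerves or animals behind a sample. The p-values therefore measure the spread between these samples, which may be technical.

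A microRNA guides a silencing complex to mRNAs that pair with its seed, the bases near its 5′ end, and lowers their translation and stability. Members of a family share the seed and so overlap in targets, while their 3′ parts differ. The miR-30 family is expressed in most tissues, brain and white matter among them. miR-30a is known for repressing the autophagy gene Beclin 1, miR-30c for repressing connective tissue growth factor in rodent heart, and miR-30b and miR-30d for repressing the glycosyltransferase GALNT7 in human melanoma.

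The mature sequences are shown because they carry the shared seed and the 3′ bases by which the members differ. The panel's names carry no arm and were read as the 5p arm. RefSeq (GRCm38.p6) held 3 of the 5 members, given here with miR-384-5p, another microRNA of the panel that carries the same seed. Sequences run 5′ to 3′, with the seed (bases 2 to 8) in capitals.
miR-30a: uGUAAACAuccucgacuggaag
miR-30e: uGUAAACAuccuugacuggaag
miR-30c: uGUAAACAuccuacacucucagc
miR-384-5p: uGUAAACAauuccuaggcaaugu
miR-30a and miR-30e are alike at 21 of 22 bases, the difference being C13U (miR-30a first, counted from 1 at the 5′ end). miR-30c shares its first 12 bases with both and, without gaps, differs from each at 5 of the 22 compared bases, all in the 3′ part, where it is 1 base longer. miR-384-5p shares 8 bases with miR-30a before the first difference. Of 1679 mature names in that RefSeq table, 4 (0.238%) carry the seed GUAAACA, the 4 printed here. The table holds no sequence for miR-30b or miR-30d, so this count leaves them out.

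The hairpins lie in 3 neighbour pairs. Mir30a (chr1:23272269-23272339, + strand) neighbours Mir30c-2 (chr1:23291701-23291784, + strand). Mir30c-1 (chr4:120769534-120769622, − strand) neighbours Mir30e (chr4:120772606-120772697, − strand), and both lie inside the gene Nfyc, which encodes a subunit of the transcription factor NF-Y. Mir30b and Mir30d neighbour each other, and no annotated gene lies between the hairpins of any of the 3 pairs. The mature miR-30c is thus made from hairpins on 2 chromosomes and is read as 1 probe.

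The total count over the mouse miRNA probes ran from 254692 to 542399 per lane, and the background limit from 32.0 to 60.6 counts. By group the limit was 47.5 to 60.6 in OGD+CX-4945, 38.7 to 51.6 in OGD+MS-275, 46.1 to 53.7 in OGD and 32.0 to 33.7 in Control. Every Control lane was thus below every other lane. The panel joins a tag to each microRNA by ligation before counting, and 3 positive ligation controls report the yield of that step. Their geometric mean differed between lanes by up to 3.41-fold. It was 1667, 2793 and 3787 counts in the OGD+CX-4945 lanes and 3155, 2991 and 2914 in the OGD+MS-275 lanes, against 1751, 1109 and 2423 in the OGD lanes and 1386, 1422 and 2369 in the Control lanes. All 3 OGD+MS-275 lanes lay above every OGD and Control lane. OGD replicate 2 had the lowest ligation count, the lowest total and, with 154, the fewest probes above the limit. Of 4 oligodendrocyte microRNAs looked at, 3 exceeded the limit in every lane. Counts were high for miR-338-3p (normalised counts of 17170 to 23173) and miR-219 (7629 to 15144). The neuronal miR-124 (6938 to 8113) and the endothelial miR-126-3p (9320 to 13533) were also high, so these counts alone do not identify the tissue. The samples are whole tissue, so fewer cells of a type and less RNA per cell cannot be told apart.

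In raw counts the family split into miR-30c and the other 4 members. The miR-30c probe had 7475, 5636 and 8855 counts in the OGD+CX-4945 lanes, 7128, 6639 and 5882 in the OGD+MS-275 lanes, 8226, 6411 and 6436 in the OGD lanes, and 6259, 6428 and 6558 in the Control lanes. Its highest lane was 1.57 times its lowest. The miR-30a probe had 749, 859 and 1423 counts in the OGD+CX-4945 lanes, 1321, 1281 and 808 in the OGD+MS-275 lanes, 917, 423 and 790 in the OGD lanes, and 564, 492 and 817 in the Control lanes. Its highest lane was 3.36 times its lowest, close to the range of the ligation controls. The same ratio was 3.22 for miR-30b (128 to 412 counts), 3.15 for miR-30d (390 to 1228) and 2.65 for miR-30e (83 to 220). Together the 5 probes held 2.14% to 2.92% of a lane's miRNA count. Of the family's own counts miR-30c held 80.8%, 73.5% and 73.0% in the OGD+CX-4945 lanes and 70.4%, 68.8% and 75.2% in the OGD+MS-275 lanes, against 79.5%, 86.2% and 76.0% in the OGD lanes and 82.3%, 83.4% and 75.9% in the Control lanes. Probes differ in efficiency, so these shares describe counts and do not rank the members' levels in tissue.

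**Figure D1:**
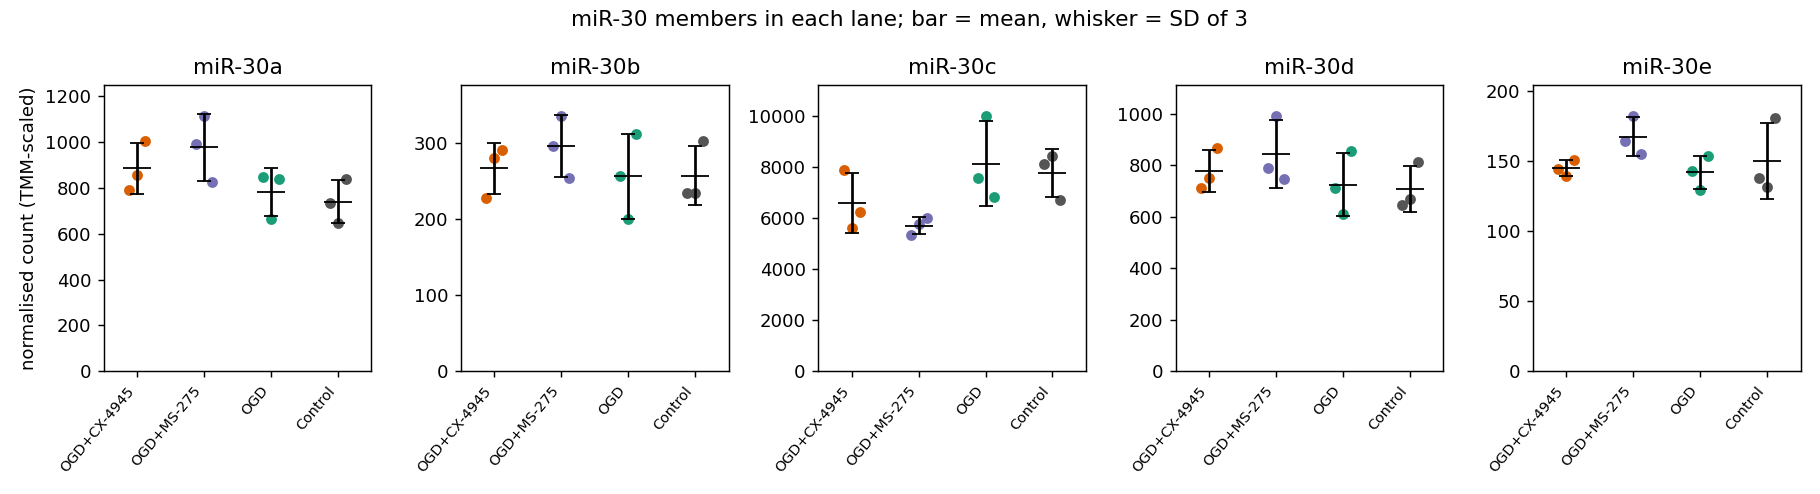
Normalised counts (TMM-scaled, vertical axes from 0, a scale per panel) of the 5 miR-30 members in the 12 lanes, by group; points are lanes, the bar is the mean and the whisker the SD of 3. On average miR-30c lies lowest in OGD+MS-275 (5339 to 6005) and miR-30a highest there (976). For miR-30c, OGD+CX-4945 replicate 2 (5617) lies within the OGD+MS-275 range. OGD and Control overlap for every member.

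Relative to the other miRNAs of a lane, miR-30c and the other members ran in opposite directions along the ligation controls. The slope was fitted in edgeR's quasi-likelihood model with a mean per group, so that it rests on differences between replicates, and p-values were adjusted over the 217 probes by the Benjamini-Hochberg method. Per doubling of the ligation count, miR-30c fell by 0.41 on the log2 scale (SE 0.09, adjusted p = 0.0116). miR-30b rose by 0.44 (SE 0.12, adjusted p = 0.0334). miR-30d (0.34, SE 0.12, adjusted p = 0.0673), miR-30a (0.31, SE 0.12, adjusted p = 0.0943) and miR-30e (0.22, SE 0.12, adjusted p = 0.236) had slopes above 0 that did not pass. Across all probes the slope passed for 25 of 217 (11.5%), 10 of them rising (4.61%) and 15 falling (6.91%), and the median slope was 0.04. In order, the slope of miR-30c was the 23rd lowest of 217 and that of miR-30b the 18th highest.

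**Figure D2:**
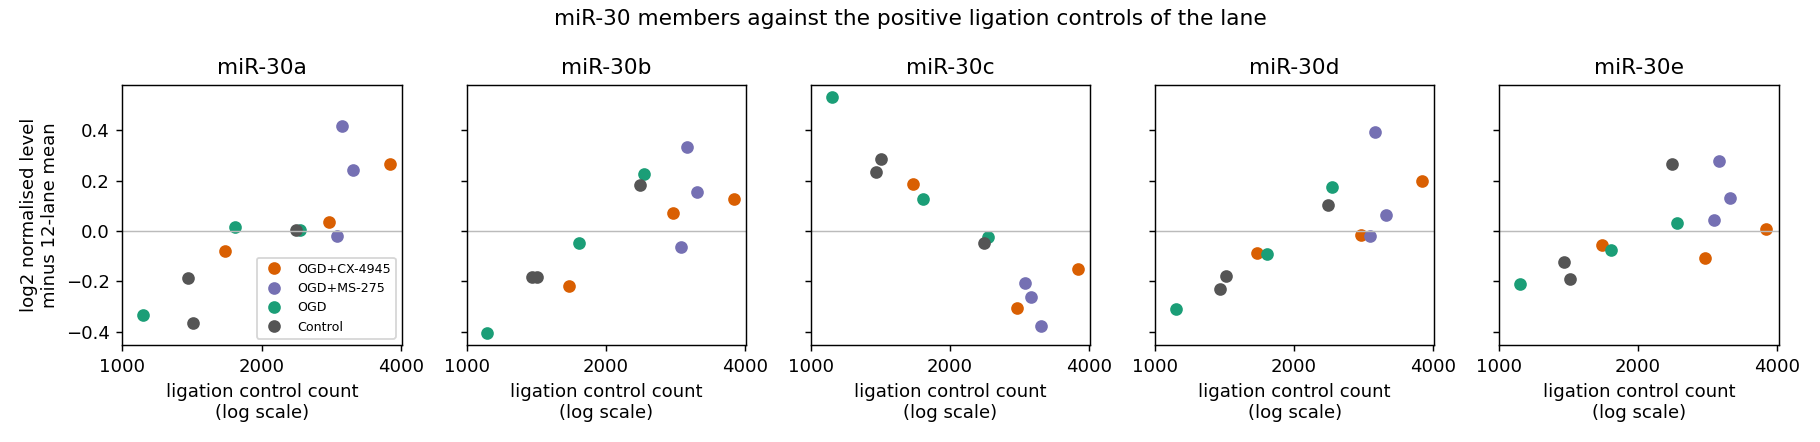
Each lane's log2 normalised level of a miR-30 member, minus that member's mean over the 12 lanes (vertical), against the lane's geometric mean of the 3 positive ligation controls (horizontal, log scale, counts); colours are the 4 groups. miR-30c is highest in the lane with 1109 ligation counts, OGD replicate 2, and miR-30b, miR-30d and miR-30e are lowest there.

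These slopes rest on few lanes. Without OGD replicate 2, OGD replicate 3 or OGD+CX-4945 replicate 1, neither member passed (adjusted p = 0.0612 to 0.0935 for miR-30c and 0.105 to 0.167 for miR-30b), and without any 1 of the 3 Control replicates miR-30b did not pass (0.0524, 0.0590 and 0.118). The slope of miR-30c stayed between -0.51 and -0.35 and that of miR-30b between 0.39 and 0.50 with each lane left out in turn. With lanes scaled by the mRNA probes, which put the median slope of all probes at 0.50, miR-30c had 0.06, below that median, and no member passed.

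**Figure D3:**
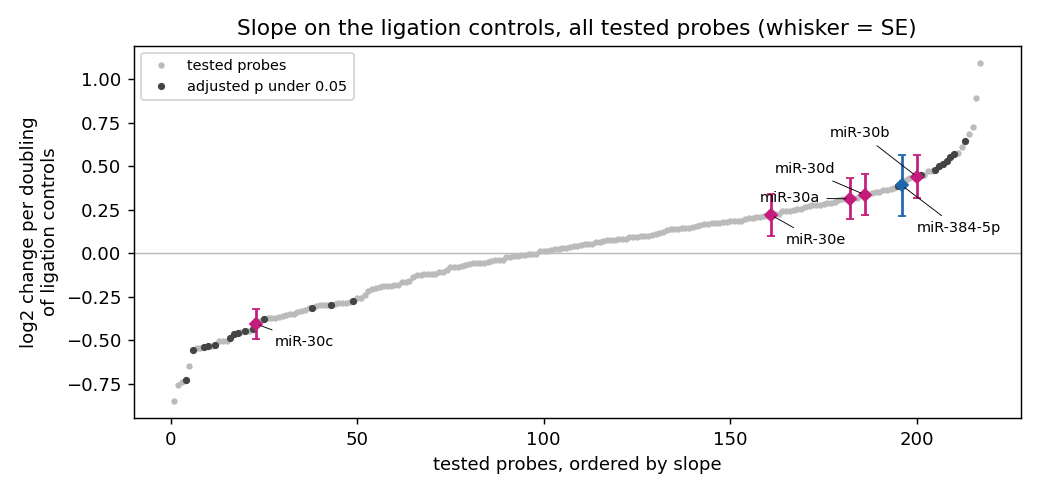
Slope on the ligation controls (log2 change per doubling, vertical) for the 217 tested probes in rising order (horizontal); dark points passed an adjusted p of 0.05, and diamonds with SE whiskers are the 5 miR-30 members and miR-384-5p. miR-30c lies at -0.41, and the other 4 members lie between 0.22 and 0.44.

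By label, OGD nerves and Control nerves differ in the deprivation alone, and no member passed the test. Their lanes also differed in the background limit, which was 46.1 to 53.7 in OGD and 32.0 to 33.7 in Control. The miR-30c probe had normalised counts of 7581, 10032 and 6826 in OGD lanes, against 8151, 8464 and 6719 in Control lanes (log2 fold change 0.07, SE 0.16). For miR-30a they were 845, 662 and 838 in OGD lanes, against 734, 648 and 837 in Control lanes (0.08, SE 0.17). The groups overlapped for both. miR-30d averaged 725 ± 122 in OGD and 707 ± 90.8 in Control (0.04, SE 0.17), miR-30b 256 ± 55.8 in OGD and 257 ± 39.2 in Control (-0.00029, SE 0.19), and miR-30e 142 ± 11.96 in OGD and 150 ± 27.0 in Control (-0.08, SE 0.16; SD, n = 3 each). The 95% interval of the difference excluded a 1.5-fold change in either direction for all 5 members. Here and below, intervals come from the fit with TMM scaling only, on counts without background subtraction. No interval was computed after subtraction, so the exclusion is not shown to hold there. After background subtraction miR-30c had 0.27, miR-30a 0.21, miR-30d 0.16, miR-30b 0.09 and miR-30e -0.02. The median of all probes was then 0.11, and no member passed.

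edgeR's quasi-likelihood test called 0 of the 5 members, where it called 0% of the 217 probes, and DESeq2 and limma-voom also called 0 of the 5. An unadjusted p under 0.05 was found for 0 of the 5 members and for 5.53% of all probes. The groups overlapped for all 5 members, where they did not overlap for 13.8% of all probes. The median log2 fold change was 0.04 over the members and 0.01 over all probes. It was above 0 for 3 of the 5 members and 52.1% of all probes, but all 5 members lay within 1 SE of 0.

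OGD+CX-4945 against OGD shows CX-4945 in deprived nerves. The largest difference among the members was that of miR-30c, with a lower mean with the drug. Its normalised counts were 7898, 5617 and 6254 in OGD+CX-4945 lanes, against 7581, 10032 and 6826 in OGD lanes (log2 fold change -0.31, SE 0.16; edgeR adjusted p = 0.628). The groups overlapped, since OGD+CX-4945 replicate 1, the lane of that group with the lowest ligation count, lay above OGD replicates 1 and 3. For miR-30a the counts were 791, 856 and 1005 in OGD+CX-4945 lanes, against 845, 662 and 838 in OGD lanes (0.18, SE 0.17; edgeR adjusted p = 0.813). miR-30d averaged 776 ± 81.6 with CX-4945 and 725 ± 122 in OGD (0.10, SE 0.17), miR-30b 266 ± 33.5 with CX-4945 and 256 ± 55.8 in OGD (0.05, SE 0.19), and miR-30e 145 ± 5.81 with CX-4945 and 142 ± 11.96 in OGD (0.03, SE 0.15; SD, n = 3 each).

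edgeR called 0 of the 5 members against 0% of all probes, DESeq2 and limma-voom called 0 of the 5, and 0 of the 5 had an unadjusted p under 0.05 against 7.37% of all probes. The groups overlapped for all 5, where 6.45% of all probes did not overlap. The median was 0.05 over the members and 0.03 over all probes. Values above 0 were found for 4 of the 5 members and 54.4% of all probes, and of these 4 only miR-30a lay more than 1 SE from 0. The mean ligation count was 2749 with CX-4945 and 1761 in OGD. With the ligation count as a covariate the difference was -0.04 (SE 0.11) for miR-30c and -0.02 (SE 0.15) for miR-30a, and the members' median was -0.11. The 95% interval without the covariate excluded a 1.5-fold change for 4 members, and for miR-30c ran from -0.64 to 0.03.

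OGD+MS-275 against OGD shows MS-275 in deprived nerves. The miR-30c probe had normalised counts of 5339, 5778 and 6005 in OGD+MS-275 lanes, against 7581, 10032 and 6826 in OGD lanes. Every OGD+MS-275 lane was below every OGD lane, with a log2 fold change of -0.51 (SE 0.16). Its unadjusted p in edgeR was 0.00557, the 7th smallest of 217, and it did not pass over all probes (adjusted p = 0.173). Without OGD replicate 2, where miR-30c was highest, the difference was -0.34 (adjusted p = 0.585). The sign turned where lanes were scaled by the mRNA probes (0.02) and in the deposited processed signal (0.05), but the medians of all probes were then 0.54 and 0.71, and miR-30c lay below them by 0.52 and 0.66. It also turned with the ligation covariate and a block of the 3 ranges into which the numbers in the sample titles fall (0.14), where the median of all probes was -0.034, so there miR-30c lay above the median. The block alone, without the covariate, gave miR-30c -0.58 (edgeR adjusted p = 0.0245) and called 24 of all 217 probes.

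The other 4 members had higher means with MS-275, but not under every alternative. Scaling by the ligation controls gave all 4 values of -0.22 to -0.13, where the median of all probes was -0.42. The ligation covariate turned miR-30b and miR-30d, and the covariate with the block of title ranges turned miR-30a and miR-30b. For miR-30a the counts were 989, 1115 and 825 in OGD+MS-275 lanes, against 845, 662 and 838 in OGD lanes (0.32, SE 0.17; edgeR adjusted p = 0.280). OGD+MS-275 replicate 3 lay below 2 of the 3 OGD lanes, so the groups overlapped. For miR-30e they were 165, 183 and 155 in OGD+MS-275 lanes, against 143, 130 and 154 in OGD lanes (0.23, SE 0.15; edgeR adjusted p = 0.350). These groups did not overlap, though the nearest lanes were at 155 and 154. miR-30d averaged 842 ± 132 with MS-275 and 725 ± 122 in OGD (0.22, SE 0.17), and miR-30b 296 ± 40.9 with MS-275 and 256 ± 55.8 in OGD (0.20, SE 0.19; SD, n = 3 each).

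edgeR called 0 of the 5 members, where it called 0.461% of all probes, and DESeq2 and limma-voom called 0 of the 5. An unadjusted p under 0.05 was found for 1 of the 5, miR-30c, against 20.7% of all probes. The groups did not overlap for 2 of the 5, miR-30c and miR-30e, against 24% of all probes. The median was 0.22 over the members, 4 of them higher, and 0.03 over all probes. With the ligation count as a covariate miR-30c had -0.15 (SE 0.12; edgeR adjusted p = 0.713), miR-30a 0.06 (SE 0.16), miR-30e 0.06 (SE 0.16), miR-30d -0.06 (SE 0.16) and miR-30b -0.15 (SE 0.16). The ligation counts of these groups do not overlap, so ligation yield and MS-275 cannot be told apart here.

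**Figure D4:**
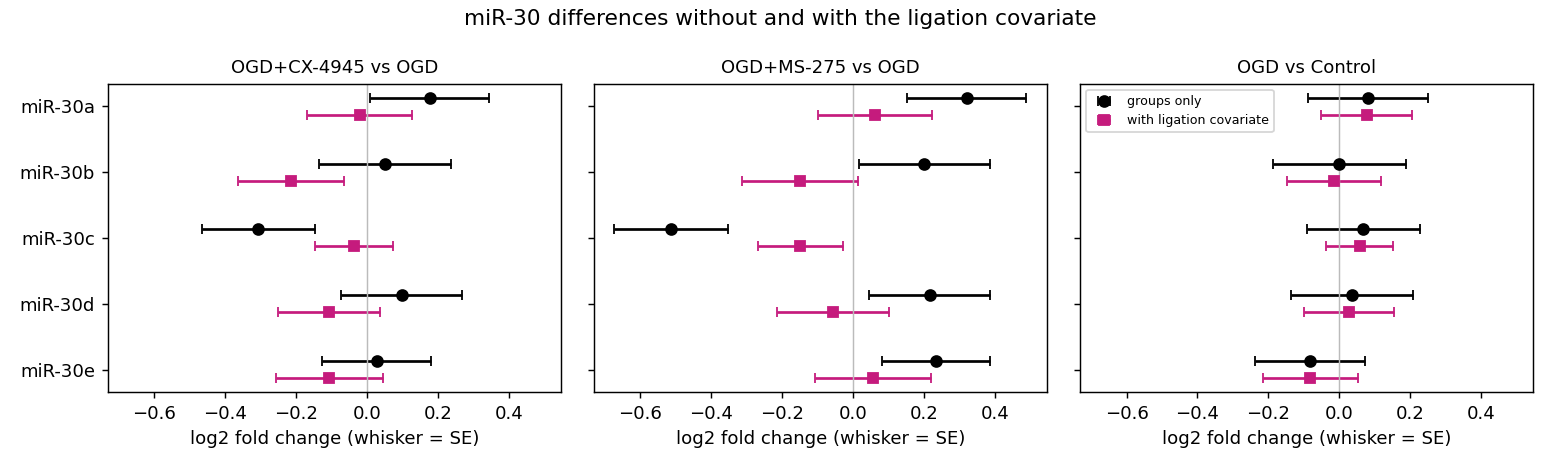
Log2 fold changes (horizontal, whisker = SE) of the 5 miR-30 members in 3 comparisons, from the fit with groups only (black circles) and with the ligation count as a covariate (magenta squares). For OGD+MS-275 vs OGD miR-30c lies at -0.51 without and -0.15 with the covariate, and for OGD vs Control the 2 fits differ by less than 1 SE for every member.

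Against Control, which is the same set of lanes for all groups, OGD+MS-275 had the larger differences. The miR-30c probe had 5339, 5778 and 6005 normalised counts in OGD+MS-275 lanes, against 8151, 8464 and 6719 in Control lanes (-0.45, SE 0.16; edgeR adjusted p = 0.112). These groups did not overlap. miR-30a averaged 976 ± 145 with MS-275 and 740 ± 94.7 in Control (0.40, SE 0.17; edgeR adjusted p = 0.16; SD, n = 3 each), with OGD+MS-275 replicate 3 below Control replicate 3. The values of miR-30d, miR-30b and miR-30e were 0.25, 0.20 and 0.15. edgeR called 0 of the 5 members, where it called 1.38% of all probes, DESeq2 and limma-voom called 0 of the 5, and 2 of the 5, miR-30a and miR-30c, had an unadjusted p under 0.05 against 23% of all probes. The groups did not overlap for 1 member, against 28.6% of all probes. The members' median was 0.20, and that of all probes -0.0049. The 95% interval excluded a 1.5-fold change for only 1 of the 5 members. With the ligation covariate miR-30c had -0.09 (SE 0.12) and miR-30a 0.14 (SE 0.16), while miR-30d and miR-30b turned to -0.03 and -0.16. miR-30e, within 1 SE of 0 without the covariate, had -0.03 with it, and the members' median was -0.03.

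OGD+CX-4945 against Control gave -0.24 (SE 0.16) for miR-30c and 0.26 (SE 0.17) for miR-30a, and miR-30d, miR-30b and miR-30e had 0.13, 0.05 and -0.05. With the ligation covariate miR-30c had 0.02 (SE 0.11), miR-30a 0.06 (SE 0.15), miR-30d -0.08, miR-30b -0.23 and miR-30e -0.19. edgeR called 0 of the 5 members against 0% of all probes, DESeq2 and limma-voom called 0 of the 5, and 0 of the 5 had an unadjusted p under 0.05 against 8.29% of all probes. The groups overlapped for all 5, where 7.83% of all probes did not overlap. The 95% interval excluded a 1.5-fold change for 4 of the 5 members. OGD+MS-275 against OGD+CX-4945 gave -0.21 (SE 0.16) for miR-30c and 0.21 (SE 0.15) for miR-30e, whose groups did not overlap, against 8.76% of all probes. miR-30b, miR-30a and miR-30d had 0.15, 0.14 and 0.12. The drugs did not differ in any member past the threshold (edgeR called 0 of the 5 and 0% of all probes, DESeq2 and limma-voom 0 of the 5, and an unadjusted p under 0.05 was found for 0 of the 5 and 4.15% of all probes). The 95% intervals of all 5 drug differences excluded a 1.5-fold change.

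Ordered by group mean, miR-30c ran from OGD+MS-275 (5707 ± 339) through OGD+CX-4945 (6589 ± 1177) and Control (7778 ± 931) to OGD (8147 ± 1676; SD, n = 3 each). miR-30a ran the other way in part, from Control (740 ± 94.7) through OGD (782 ± 104) and OGD+CX-4945 (884 ± 110) to OGD+MS-275 (976 ± 145). No neighbours in either order differed past the threshold. Asked whether any of the 4 groups differed, edgeR called 0 of the 5 members against 0.461% of all probes. DESeq2 and limma-voom called 0 of the 5. miR-30c alone of the 5 had an unadjusted p under 0.05 (0.0221, adjusted p = 0.266), which 15.2% of all probes had.

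The ratio of 2 members in 1 lane does not depend on how lanes are scaled. It can still follow the ligation count where the slopes of the 2 members differ, as for miR-30a (0.31) and miR-30c (-0.41). miR-30b and miR-30d, whose hairpins are neighbours, kept a ratio of 0.321 to 0.376 in all 12 lanes, a 1.17-fold range. miR-30d over miR-30a ranged 1.29-fold and miR-30a over miR-30e ran from 4.62 to 6.65. By contrast miR-30a over miR-30c, which are also neighbours through Mir30c-2, ranged 2.92-fold. It was 0.1002, 0.152 and 0.161 in OGD+CX-4945 lanes and 0.185, 0.193 and 0.137 in OGD+MS-275 lanes, against 0.111, 0.0660 and 0.123 in OGD lanes and 0.0901, 0.0765 and 0.125 in Control lanes. All 3 OGD+MS-275 lanes were above every OGD and Control lane. The same holds for their ligation counts, so ligation yield and MS-275 cannot be told apart in this ratio either. Against OGD the log2 ratio differed by 0.81 for miR-30a over miR-30c and by 0.73 for miR-30e over miR-30c (exact permutation test, two-sided p = 0.10 for both, the lowest possible with 3 lanes a group, and 0.72 after Benjamini-Hochberg adjustment over 18 tests). miR-30c over miR-30b had 18.0, 17.2 and 23.6 in OGD+MS-275 lanes, against 29.5, 50.1 and 21.9 in OGD lanes, which overlap (exact permutation p = 0.20). None of the 18 tests, 6 pairs in 3 comparisons, passed after adjustment.

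As a description over 12 lanes, which share depth and scaling, Pearson correlations of log2 normalised levels were positive among miR-30a, miR-30b, miR-30d and miR-30e (0.76 to 0.93) and negative between miR-30c and each of them (-0.83 to -0.67). The highest was that of miR-30b with miR-30d. With group means removed it was 0.94, and miR-30c had -0.87 to -0.58 with the others. Of the 217 tested probes the 3 most like miR-30c were miR-27a (0.99), of a family expressed in vessels and leukocytes, miR-99a (0.97) and the lymphocyte microRNA miR-150 (0.96). Along the ligation controls these 3 had slopes of -0.46, -0.31 and -0.38, which passed in edgeR, as did that of miR-30c. What lies behind the likeness was not tested. The 3 most like miR-30a were miR-106b (0.95), miR-185 (0.88) and miR-30d (0.88). For miR-30b they were miR-30d (0.93), the inflammation-related miR-21 (0.91) and miR-24 (0.89), for miR-30d miR-30b (0.93), miR-21 (0.93) and miR-24 (0.89), and for miR-30e miR-21 (0.83), miR-30d (0.83) and miR-30b (0.82).

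miR-384-5p, which carries the miR-30 seed and is known in rat hippocampal neurons for a part in lasting synaptic potentiation, had raw counts of 67 to 259, above the limit in all 12 lanes. Its normalised counts were 134, 196 and 148 in OGD+CX-4945 lanes and 166, 225 and 154 in OGD+MS-275 lanes, against 125, 105 and 162 in OGD lanes and 130, 112 and 161 in Control lanes. The log2 fold change was 0.47 (SE 0.21; edgeR adjusted p = 0.224) with MS-275 against OGD, 0.28 (SE 0.21) with CX-4945 against OGD and -0.04 (SE 0.22) for OGD against Control. With the ligation covariate these were 0.16 (SE 0.23), 0.05 (SE 0.21) and -0.05 (SE 0.19). Its slope on the ligation controls was 0.39 (SE 0.17, adjusted p = 0.151). The other strand of its hairpin, miR-384-3p, had raw counts of 50 to 171, above the limit in 11 lanes, and a log2 fold change of 0.01 (SE 0.17) with MS-275 against OGD.

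Markers of microglia and leukocytes are called leukocyte markers here, and those of endothelium and mural cells vessel markers. The summed normalised counts of the leukocyte markers (miR-142-3p, miR-142-5p, miR-150, miR-155 and miR-223, 4 of the 5 tested, miR-155 being at 1 count in every lane) lay between 2505 and 3142 in OGD+CX-4945 lanes and between 2273 and 2645 in OGD+MS-275 lanes, against 2825 to 3670 in OGD lanes and 2775 to 3430 in Control lanes. Those of the vessel markers (miR-126-3p, miR-126-5p, miR-143 and miR-145, all 4 tested) lay between 11215 and 13912 in OGD+CX-4945 lanes and between 11305 and 11891 in OGD+MS-275 lanes, against 12657 to 14461 in OGD lanes and 13305 to 16320 in Control lanes. Both sums were lower in every OGD+MS-275 lane than in every OGD lane, as were 10.6% of single probes. In each list few probes carried this. Of the vessel markers miR-126-3p, which makes up most of the sum (9320 to 13533), had -0.33, while miR-126-5p, miR-143 and miR-145 had 0.10, 0.38 and 0.28. Of the leukocyte markers miR-150 had -0.50 and miR-223 -0.26, while miR-142-3p and miR-142-5p had -0.03 and -0.0045. None of these 8 differences passed in edgeR. On the ligation controls miR-126-3p and miR-150 had slopes of -0.28 and -0.38 (edgeR adjusted p = 0.0426 and 0.0257), and the slopes of the others did not pass. The ligation counts of OGD+MS-275 and OGD lanes do not overlap, so ligation yield and MS-275 cannot be told apart in these sums. miR-150 is in the leukocyte list and is also 1 of the 3 probes most like miR-30c. The part of these cells in the difference of miR-30c was not tested. The sums for oligodendrocytes, neurons, erythroid cells, skeletal muscle, epithelium and pigment epithelium overlapped between OGD+MS-275 and OGD lanes, the oligodendrocyte sums being 27376 to 36110 in OGD+MS-275 lanes and 30038 to 34836 in OGD lanes.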

How the data were processed

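Small RNA of 12 samples was profiled on an nCounter miRNA expression panel, per the labels. The deposited table gives, per the file headers, raw barcode counts, a lane in each column. A second table holds a deposited processed signal, whose making is not stated, and served only as an alternative, after adding 1 and taking log2. A blank row (1) that names no probe did not enter totals or tests.

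Differences were tested by quasi-likelihood in edgeR (version 4.0.16, R 4.3.3; limma 3.58.1, DESeq2 1.42.0) with TMM factors and robust dispersion, in 1 fit of all 12 samples with a mean per group (8 residual degrees of freedom) and Benjamini-Hochberg adjustment over 217 probes at 0.05. The SE is the log2 fold change over the square root of the test's F. Normalised counts are raw counts divided by the TMM-scaled library size and set to the mean lane. The common biological coefficient of variation was 16.6%. Replicates were numbered in accession order and were not treated as paired, since the labels do not state whether they are. The scripts were tested on simulated counts.

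The 5 members, the marker lists and the tests were chosen with earlier results of these data known. Named probes were the 5 members, miR-384 probes, and the 3 probes most like each member by Pearson r over 12 lanes. A difference within 1 SE of 0 was given no direction. RefSeq tables (GRCm38.p6) gave sequences and neighbours only. Alternatives covered normalization, the filter, background, the test, the ligation covariate, blocks and each replicate left out.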

Additional observations from a re-analysis of the deposited data

How the results depend on the processing

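No member passed in any of the 6 comparisons, or in the test for any difference, under the alternatives run, except miR-30c and miR-30a in the following. A replicate block of the 3 number ranges in the sample titles, whose meaning is not given, called 1 member in OGD+MS-275 vs OGD (miR-30c, -0.58, edgeR adjusted p = 0.0245) and 2 in OGD+MS-275 vs Control (miR-30a and miR-30c), where it called 24 and 37 of all 217 probes, against 1 and 3 without the block. A fit of only the 2 groups called 1 there (miR-30c, -0.42, adjusted p = 0.0431) and 19 of all probes. OGD+MS-275 replicates 1 and 2 both lie in the lowest range, and no lane of that group lies in the highest. The other groups have a lane in each range. Same-range lanes of different groups had a median correlation of 0.31 (18 pairs, -0.62 to 0.56) and others -0.17 (36 pairs, -0.66 to 0.67). Same-range pairs were thus more alike at the median, with wide overlap, and a shared effect of the ranges was not tested. The main fit did not treat the lanes as paired, since the labels do not state what the ranges are. The count of members whose slope on the ligation controls passed was 2, of 25 probes in all. It was 4 of 29 with totals only, 1 of 33 after background subtraction, 0 of 10 with mRNA scaling, 0 of 11 without the low-count filter (566 probes tested) and 0 of 0 with the replicate block of 3 ranges. With each replicate left out it ran from 0 to 3, and the count over all probes from 0 to 37. The cause was not tested. Signs turned as follows. In OGD+CX-4945 vs OGD, miR-30a had -0.12 (ligation scaling), -0.021 (ligation covariate) and -0.032 (covariate and block), and miR-30c 0.079 (positive-control scaling), 0.078 (deposited signal) and 0.11 (covariate and block). In OGD+MS-275 vs OGD, ligation scaling gave -0.13, -0.22, -0.22 and -0.21 for miR-30a, miR-30b, miR-30d and miR-30e, the covariate -0.15 for miR-30b and -0.056 for miR-30d, and covariate and block -0.0017, -0.21 and 0.14 for miR-30a, miR-30b and miR-30c. There miR-30c had 0.024 (mRNA scaling) and 0.052 (deposited signal). In OGD+CX-4945 vs Control, miR-30c had 0.018 (positive-control scaling), 0.020 (covariate) and 0.16 (covariate and block). In OGD+MS-275 vs Control, miR-30b and miR-30d had -0.16 and -0.12 (ligation scaling) and -0.16 and -0.028 (covariate), and covariate and block gave -0.22 for miR-30b and 0.19 for miR-30c. In OGD+MS-275 vs OGD+CX-4945, miR-30c had 0.044 (mRNA scaling) and 0.030 (covariate and block). The slope of miR-30c was 0.061 with mRNA scaling. Scaling by ligation controls, mRNA probes or positive controls, and the deposited signal, shift all probes together, by up to 0.71 on the log2 scale in OGD+MS-275 vs OGD. Of 30 member differences, 15 lay within 1 SE of 0, were given no direction and changed sign in 60 of their 315 alternatives. The lowest lanes of miR-384-3p, miR-384-5p and miR-30e were 0.931, 1.25 and 1.55 times the background limit, which limits these probes.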
